A study of Mus musculus and Rattus norvegicus with 51 samples.

Results

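Chemokine ligands are the genes of the CCL, CXCL, CX3CL and XCL families, and they were followed here through every cell and liver group of a study of HMGB1 redox forms in liver fibrosis. Members were all rows of the 3 deposited count tables whose symbol is Ccl, Cxcl, Cx3cl or Xcl followed by a number and at most 1 letter. The rule took 42 symbols in all, of which 31 stood in all 3 tables. The rat cell table held 34 of them among 17327 genes, the table of fibrotic and resolving mouse livers 39 among 24421, and the table of livers given MO or CCl4 39 among 24982. Of the 34 ligands in the cells, 8 had no count in any library, 13 had counts too low to test and 13 were tested. Of the 39 in fibrotic and resolving livers, 6 had no count, 10 were too low and 23 were tested, and of the 39 in MO and CCl4 livers 5 had no count, 7 were too low and 27 were tested. Without a count were, in the cells, Ccl1, Ccl6, Ccl12, Ccl19, Ccl21, Ccl24, Ccl26 and Cxcl17, and in both liver tables Ccl21a, Ccl21b, Ccl21c, Ccl26 and Ccl27b, with Cxcl15 as well in fibrotic and resolving livers. Pf4 and Ppbp, the platelet chemokines, carry other symbols and are given only beside the members.

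RNA was sequenced from HSC-T6, a rat line of hepatic stellate cells (the collagen-forming cells of the liver), and from total liver of male mice, in 51 libraries. The cells had 6 hours of BSA, the control protein, or of HMGB1 labelled [H], [O] or [SO3], with 3 libraries each, all from this single cell line. The labels do not spell out these codes, which name redox forms of the protein. Fibrotic livers were WT livers after 4 weeks of CCl4, a hepatotoxin, with BSA, [H] HMGB1 or [O] HMGB1, so that the BSA controls carried CCl4 as well. Resolving livers were WT livers labelled Regress, 1 week, with BSA, [SO3] HMGB1 or HMGB1 Ab, an antibody. Each of these 6 groups had 3 libraries. A further set had MO (3 libraries a group) or CCl4 (4 libraries a group) for 4 weeks in WT livers and in livers of genotype Hmgb1ΔHepΔMye with WT HMGB1 or with Δ[O] HMGB1. Library numbers are those of the labels, and the CCl4 livers of the knockout carry numbers 1, 3, 4 and 5 with WT HMGB1 and 1, 2, 3 and 5 with Δ[O] HMGB1. The wild-type livers of that set carry no labelled HMGB1 construct, so that genotype and construct cannot be told apart where knockout and wild-type livers are compared. The driver of the deletion, the delivery of the construct and the age of the animals are not analysed here.

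Libraries held 11.8 to 17.0 M (mega) gene counts in the cells, 8.36 to 16.3 M in fibrotic and resolving livers and 22.6 to 39.3 M in MO and CCl4 livers. Levels are CPM, counts per M of a scaled library size, given in the order of the replicate numbers, and fold changes are log2 values with a standard error (SE). A gene is called higher or lower at an adjusted p under 0.05 over all genes tested in its table. Nothing in the labels says that cell libraries came from separate cultures, so their p-values measure the spread between these libraries, which may be technical. Hmgb1, the gene targeted in the knockout, had 72.8 to 77.3 CPM in wild-type livers given MO, 63.9 to 74.7 in knockout livers with WT HMGB1 and 131 to 215 in those with Δ[O] HMGB1. With CCl4 it had 57.2 to 107, 44.9 to 74.1 and 61.7 to 92.2 CPM, and since counts cannot tell the endogenous gene from a construct these levels do not check the knockout labels. Col1a1, the collagen of activated stellate cells, stood at 37810.0 to 39894 CPM in the BSA cells, and Pdgfrb at 644 to 697 CPM. Lrat, the retinoid enzyme of quiescent stellate cells, had 0, 0 and 0 CPM there, so that 1 defining marker of the labelled cell type was not seen. The 5 neutrophil markers of the cell table summed to at most 0.0681 CPM in any cell library, and the T and NK cell markers to at most 0.272 CPM. The monocyte and macrophage markers summed to 964 to 1016 CPM in the BSA cells, of which Gpnmb gave 961 to 1012, while Itgam, Adgre1 and Trem2 were at 0 in all 3 BSA libraries. The dendritic cell markers summed to 15.8 to 17.9 CPM, of which Zbtb46 gave 15.8 to 17.9.

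Chemokines are small secreted proteins that steer leukocytes along a gradient through G protein-coupled receptors. Those with a glutamate-leucine-arginine (ELR) motif, such as CXCL1 and CXCL2, act on CXCR2 and draw neutrophils, and CCL2 and its relatives act on CCR2 and draw monocytes. CXCL9, CXCL10 and CXCL11 are interferon-inducible ligands of CXCR3 on T and NK cells, and CXCL12 is a homeostatic ligand of CXCR4. In liver, hepatocytes, Kupffer cells, stellate cells, endothelium and bile duct cells can all make chemokines.

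The mouse promoters of 5 ligands are shown, those of the ligands that rose with [O] HMGB1 in the cells whose window holds the NF-kappaB consensus, so that all 5 carry a match by choice. RefSeq windows on GRCm38.p6 were found for 27 of the member genes by symbol. In the 250 bases before the start, 7 of these 27 genes (25.9%) held the NF-kappaB consensus on either strand, against 8.23% of all 27025 genes with a window. An interferon response element, a pair of GAAA repeats with any 2 bases between them, searched on both strands, stood in 3 of 27 (11.1%), against 3.46% of all genes. On GRCm38, 12 of the members with a position lie on chromosome 11 and 11 on chromosome 5, the chromosomes of the CCL and CXCL gene clusters. These counts include Cxcl16 on chromosome 11 and Ccl24 and Ccl26 on chromosome 5, which lie away from those clusters. Capitals mark the matches, and windows read 5′ to 3′ on the gene's strand. They are the 250 bases before the start of Cxcl1 (chr5:90890995-90891244, + strand), Cxcl2 (chr5:90903649-90903898, + strand), Cxcl3 (chr5:90785851-90786100, + strand), Ccl20 (chr1:83116516-83116765, + strand) and Cxcl10 (chr5:92348890-92349139, − strand).
Cxcl1: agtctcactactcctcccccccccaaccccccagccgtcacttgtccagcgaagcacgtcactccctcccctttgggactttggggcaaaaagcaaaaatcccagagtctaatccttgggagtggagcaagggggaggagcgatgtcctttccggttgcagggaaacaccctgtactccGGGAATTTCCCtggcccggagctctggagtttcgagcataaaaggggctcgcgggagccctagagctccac
Cxcl2: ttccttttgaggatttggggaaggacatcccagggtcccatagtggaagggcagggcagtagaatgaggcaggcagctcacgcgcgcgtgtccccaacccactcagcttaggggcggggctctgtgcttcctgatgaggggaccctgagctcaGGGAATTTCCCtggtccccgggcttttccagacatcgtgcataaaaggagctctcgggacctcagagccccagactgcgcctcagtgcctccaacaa
Cxcl3: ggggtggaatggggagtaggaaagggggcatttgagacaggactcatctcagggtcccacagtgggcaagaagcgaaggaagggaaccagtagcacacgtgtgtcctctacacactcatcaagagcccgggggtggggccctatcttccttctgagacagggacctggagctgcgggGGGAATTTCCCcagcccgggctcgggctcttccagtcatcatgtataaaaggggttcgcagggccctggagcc
Ccl20: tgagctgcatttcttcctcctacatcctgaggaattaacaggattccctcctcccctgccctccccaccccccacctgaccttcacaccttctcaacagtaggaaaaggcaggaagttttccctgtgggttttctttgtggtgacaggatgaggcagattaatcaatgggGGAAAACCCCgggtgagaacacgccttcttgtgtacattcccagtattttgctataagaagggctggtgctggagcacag
Cxcl10: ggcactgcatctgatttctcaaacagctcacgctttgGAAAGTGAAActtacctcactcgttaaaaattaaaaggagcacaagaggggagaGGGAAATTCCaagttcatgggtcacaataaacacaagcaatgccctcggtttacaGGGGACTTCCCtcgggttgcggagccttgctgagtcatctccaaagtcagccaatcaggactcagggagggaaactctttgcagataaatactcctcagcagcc
The Cxcl1, Cxcl2 and Cxcl3 windows share the run GGGAATTTCCC, in which forward and reverse matches overlap, and its first base lies 71, 97 and 73 bases before the start. Ccl20 has its match 80 bases before the start. Cxcl10 has matches 159 and 104 bases before the start and the interferon element 213 bases before it, outside either of them. The other 2 genes with the NF-kappaB consensus were Ccl1 and Ccl9, and the other 2 with the interferon element were Ccl19 and Cxcl14. Of the 12 ligands that rose with [O] HMGB1 in the rat cells, 7 had a mouse window and 5 of those held the NF-kappaB consensus, the exceptions being Cx3cl1 and Cxcl12. A match describes letters in a mouse window, not a site in use, and the cells are from rat.

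In the stellate cells, [O] HMGB1 raised 12 of the 13 ligands tested and lowered 1, against 23.7% higher and 20.2% lower among all 10140 genes (43.9% called either way). The median log2 change was 5.20 over these 13 ligands and −0.01 over all genes tested. Because 4 of the 13 (Cxcl2, Cxcl6, Cxcl11 and Ccl20) reached 10 counts in every library only with [O] HMGB1, their entry to the test already favoured a difference there. The 8 ligands that reached 10 counts in every library of every group all rose. The sum over all ligands was 3817 ± 57.2 CPM (SD, n = 3) with [O] HMGB1 and 330 ± 26.8 CPM with BSA.

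All 4 ELR ligands of the rat table rose. Cxcl1, the CXCR2 ligand named for neutrophil recruitment, had 5.85, 6.11 and 8.21 CPM with BSA, 7.12, 6.69 and 7.01 with [H], 661, 702 and 717 with [O] and 207, 218 and 189.6 with [SO3] HMGB1. The [O] and [SO3] libraries lay far above the BSA libraries with no overlap ([O] against BSA log2 6.71, SE 0.078, adjusted p = 9.27e-27). Cxcl3, a neighbour of Cxcl1 in the same gene cluster, had 1.97, 2.34 and 2.48 CPM with BSA and 313, 313 and 320.0 with [O] HMGB1 (log2 7.13, SE 0.087, adjusted p = 1.8e-27). Cxcl6, another CXCR2 ligand, had 0.340, 0.355 and 0.256 CPM with BSA and 123, 127 and 129 with [O] (log2 8.58, SE 0.11, adjusted p = 7.41e-27). Cxcl2 rose from 1 count in all BSA libraries to 2.14, 3.05 and 3.47 CPM, a ratio of 116 with a 95% counting interval of 20.6 to 4634. The [O] libraries of all 4 genes lay above every BSA library.

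Ligands of CCR2 rose as well. Ccl2, the main attractant of monocytes, had 46.9, 50.3 and 51.9 CPM with BSA, 34.4, 27.9 and 30.1 with [H], 922, 951 and 987 with [O] and 386, 382 and 321 with [SO3] HMGB1. The groups stood in the order [O], [SO3], BSA, [H] without overlap ([O] against BSA log2 4.26, SE 0.079, adjusted p = 3.04e-16). Ccl7, its close relative, had 5.99, 9.09 and 6.33 CPM with BSA and 248, 268 and 274 with [O] HMGB1 (log2 5.20, SE 0.14, adjusted p = 5.45e-12). Both ligands that call monocytes thus stood above every BSA library in each [O] library. Ccl20, the ligand of CCR6 on Th17 and dendritic cells, had 2 counts over the 3 BSA libraries and 1255 over the 3 [O] libraries, a ratio of 533 with a 95% counting interval of 147 to 4410. Cx3cl1, the membrane-tethered fractalkine bound by CX3CR1 on monocytes, had 1.91, 1.21 and 1.11 CPM with BSA and 303, 296 and 287 with [O] HMGB1 (log2 7.68, SE 0.10, adjusted p = 1.89e-26).

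Both CXCR3 ligands tested rose with [O] HMGB1. Cxcl10, an interferon-inducible T cell attractant, had 10.1, 7.31 and 32.1 CPM with BSA and 152, 170.0 and 138 with [O] (log2 3.28, SE 0.51, adjusted p = 0.000814). BSA library 3 stood above the other 2 and still lay below every [O] library. Cxcl11 had 0.204, 0.0710 and 0.342 CPM with BSA and 3.12, 2.93 and 3.41 with [O] (log2 3.94, SE 0.36), while Cxcl9, the third of the group, stayed below the filter on low counts. Cxcl12, the ligand with the most counts in BSA cells, had 202, 208 and 221 CPM with BSA and 864, 838 and 851 with [O] (log2 2.02, SE 0.040, adjusted p = 3.78e-23). Cxcl16, a transmembrane ligand that also acts as a scavenger receptor, had 31.6, 36.8 and 35.1 CPM with BSA and 136, 129.6 and 129 with [O] (log2 1.93, SE 0.055). Ccl27, a ligand of CCR10, was the only one that fell, with 0.817, 1.28 and 0.940 CPM with BSA and 0.612, 0.572 and 0.450 with [O] (log2 −0.88, SE 0.33, adjusted p = 0.031), a call that DESeq2 did not make (adjusted p = 0.117) and that was lost without BSA library 2 or without [O] library 2 or 3.

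**Figure D1:**
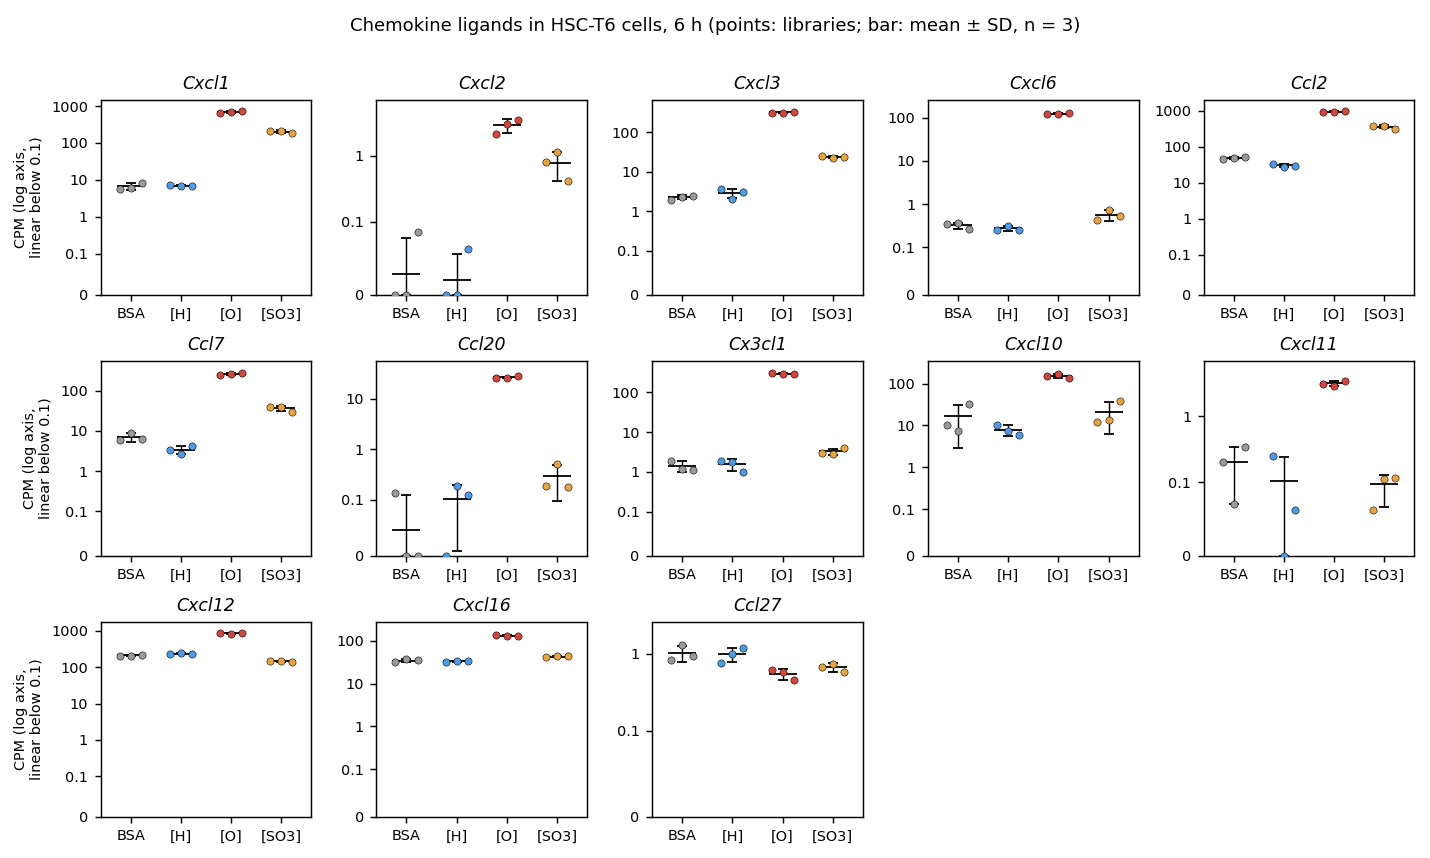
Levels of the 13 tested ligands in the stellate cells, in CPM on a log axis that is linear below 0.1, by treatment. Points are the 3 libraries of a group and the mark with its bar is the mean with SD, clipped at 0. Only Ccl27 is lower with [O] HMGB1 than with BSA, and Cxcl12 is the ligand that was called higher with [O] and lower with [SO3] HMGB1.

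With [SO3] HMGB1, 8 of the 13 ligands rose and 1 fell against BSA, where 31.1% of all genes tested were higher and 32.2% lower (63.3% either way). The median was 1.18 over the 13 ligands and −0.02 over all genes. Cxcl1 rose most among the ligands with more than 3 counts in BSA cells (log2 4.95, SE 0.080, adjusted p = 1.53e-23), followed by Cxcl3 (22.5 to 25.6 CPM, log2 3.40, SE 0.12), Ccl2 (log2 2.87, SE 0.077) and Ccl7 (30.4 to 40.7 CPM, log2 2.35, SE 0.16). Cx3cl1 rose to only 2.85 to 3.95 CPM (log2 1.18, SE 0.22) and Cxcl16 to 40.9 to 44.6 CPM (log2 0.32, SE 0.060). Cxcl2 reached 0.407 to 1.14 CPM, 31.8 times its BSA level with a counting interval of 5.39 to 1287, and Ccl20 reached 0.174 to 0.514 CPM, 5.96 times with an interval of 1.39 to 53.7. The call of Ccl20 was lost without BSA library 2 or 3 or [SO3] library 2. Cxcl12 fell, with 146, 146 and 139.7 CPM below every BSA library (log2 −0.55, SE 0.041, adjusted p = 2.69e-11). Cxcl10, Cxcl6 and Cxcl11 were not called. Cxcl10 had 11.9, 13.3 and 38.6 CPM, with library 3 apart from the other 2 (log2 0.44, SE 0.63, adjusted p = 0.564), and its sign turned when 1 library was left out (log2 −0.31 to 1.29).

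Set directly against [O] HMGB1, [SO3] HMGB1 gave lower levels of 12 of the 13 ligands and higher levels of none, where 30% of all genes were lower and 29.1% higher (59.2% either way). Cxcl2, Cxcl6, Cxcl11 and Ccl20, which reached 10 counts in every library only with [O] HMGB1, entered the test in a way that favoured a lower value here, and the 8 ligands with 10 counts in every library were all lower. The log2 differences ran from −7.77 to −1.39 without a set boundary, and they do not give the distance of a ligand from its BSA level. Cxcl6 (log2 −7.77, SE 0.097), Cx3cl1 (log2 −6.50) and Ccl20 (log2 −6.45) differed most. With [SO3] HMGB1 Cxcl6 had 0.433, 0.742 and 0.523 CPM, against 0.340, 0.355 and 0.256 with BSA. Ccl2 (log2 −1.39), Cxcl16 (log2 −1.62), Cxcl1 (log2 −1.76) and Cxcl2 (log2 −1.86) differed least. Between them stood Cxcl11 (log2 −4.89), Cxcl3 (−3.73), Ccl7 (−2.85), Cxcl10 (−2.84) and Cxcl12 (−2.57). Ccl27 was the ligand not called.

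With [H] HMGB1 a single ligand was called against BSA, Ccl2, which was lower (log2 −0.69, SE 0.090, adjusted p = 0.00167), where 0.799% of all genes were called in either direction and 0.483% lower. All 3 [H] libraries, at 34.4, 27.9 and 30.1 CPM, lay below the lowest BSA library, at 46.9 CPM. Ccl7 was not called (2.66 to 4.28 against 5.99 to 9.09 CPM, log2 −1.06, SE 0.26, adjusted p = 0.0939), nor was Cxcl12 (log2 0.16, adjusted p = 0.0675). With [H] HMGB1 Cxcl10 had 10.5, 7.31 and 6.01 CPM, Cx3cl1 1.91, 1.80 and 0.992 and Cxcl2 0, 0 and 0.0620, none of them called. DESeq2 called both Ccl7 and Cxcl12, edgeR called 2 ligands without BSA library 3, and 4 of the 13 ligands had an unadjusted p under 0.05. Against [H] HMGB1, [O] HMGB1 gave higher levels of 12 and a lower level of 1 of the 13 ligands (21.9% of all genes higher and 19% lower, 40.8% either way). The entry of the same 4 ligands favoured [O] here too, and the 8 with 10 counts in every library were all higher. The lower ligand was Ccl27 (log2 −0.83, SE 0.32, adjusted p = 0.0381), a call kept in 1 of 6 fits that left out 1 library (without [H] library 1) and not made by DESeq2, which called 12 higher and 0 lower. The log2 differences from [H] were 8.82 for Cxcl6, 7.88 for Ccl20, 7.56 for Cx3cl1, 6.74 for Cxcl3, 6.64 for Cxcl1, 6.26 for Ccl7, 4.95 for Ccl2, 4.82 for Cxcl11, 4.27 for Cxcl10 and 1.86 for Cxcl12. Cxcl2, with 1 count in the [H] libraries, had a ratio of 138 with a counting interval of 24.4 to 5495. This comparison shares its [O] libraries with the one against BSA, and Ccl20, for example, had 0, 0.186 and 0.124 CPM with [H] and 25.9, 25.9 and 27.3 with [O].

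The make-up of the ligand RNA differed between treatments as well as its amount. Cxcl12 held 63.8% ± 2.19 (SD, n = 3) of all ligand counts with BSA and 72.6% ± 1.67 with [H] HMGB1, and Ccl2 came next with 15.1% ± 0.584 and 9.56% ± 1.04. With [O] HMGB1 the counts spread over Ccl2 (25.0% ± 0.493), Cxcl12 (22.3% ± 0.613), Cxcl1 (18.2% ± 0.490) and the rest. With [SO3] HMGB1 Ccl2 held 43.0% ± 2.24, Cxcl1 24.3% ± 0.551 and Cxcl12 17.1% ± 0.483. These shares are of counts and longer transcripts give more counts. The cells held almost none of the receptors: of 16 signalling chemokine receptors in the table only 1 was tested and none was called in any cell comparison. Ackr3, an atypical receptor that takes up CXCL12, had 189, 181 and 165 CPM with BSA, 257, 258 and 254 with [O] and 378, 377 and 376 with [SO3] HMGB1. It was higher with [O] (log2 0.52, SE 0.044, adjusted p = 2.76e-10) and higher again with [SO3] HMGB1 (log2 1.08, SE 0.043 against BSA). Cxcl12 was higher with [O] and lower with [SO3] HMGB1 than with BSA, and a link between these genes was not tested.

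**Figure D2:**
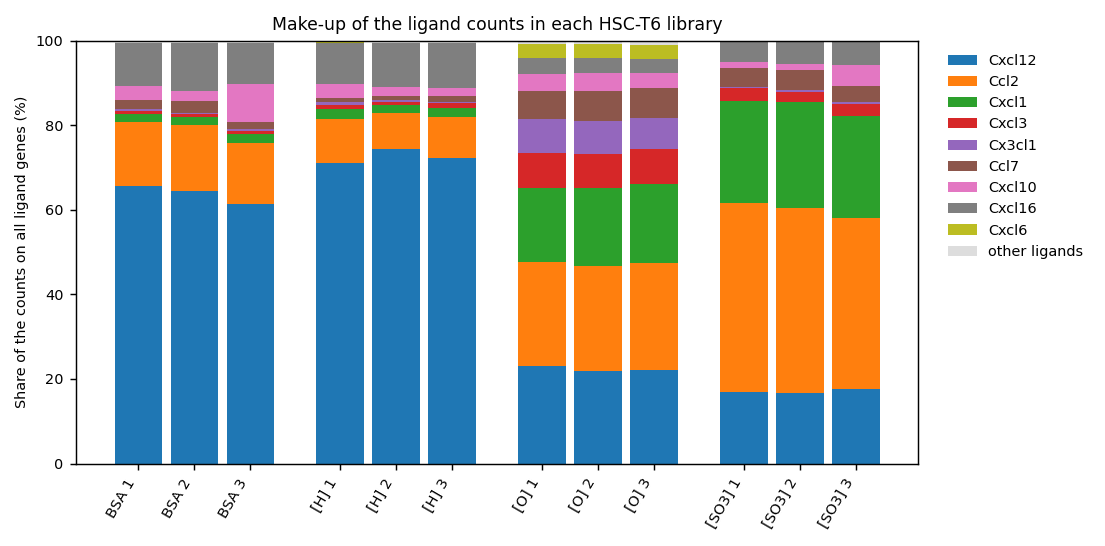
Share of all chemokine ligand counts taken by each ligand in the stellate cells, in percent, as stacked bars with 1 bar for each library, 3 for each treatment. Cxcl12 fills most of the bar with BSA and [H] HMGB1, and Ccl2 and Cxcl1 grow with [O] and [SO3] HMGB1.

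In whole liver Cxcl12 and Ccl9 were among the first 4 ligands per kilobase of exon in all 12 groups, and the rest of the order differed between groups. Per kilobase of exon, Cxcl12 stood at 44.0 ± 1.15 CPM per kb (SD, n = 3) in wild-type livers given MO, Ccl9, a CCR1 ligand of mice, at 33.7 ± 2.27 and Ccl6, another CCR1 ligand of macrophages, at 15.7 ± 2.10. The B cell attractant Cxcl13 followed at 5.18 ± 0.357 and the eosinophil attractant Ccl24 at 3.82 ± 0.930 CPM per kb. In knockout livers with WT HMGB1 given MO, Cxcl1 was the third ligand at 35.2 ± 12.2 and Ccl6 stood at 4.80 ± 0.848. In fibrotic livers with BSA, Cxcl2 had the highest mean, 56.8 ± 91.8, with the SD above the mean. In resolving livers with BSA the order was Cxcl12 (52.0 ± 3.84), Ccl9 (37.8 ± 3.67) and Cxcl13 (30.2 ± 19.2). The 2 liver tables were made and scaled separately, so these levels are not compared across them. In whole tissue, fewer cells of a type and less RNA per cell cannot be told apart.

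**Figure D3:**
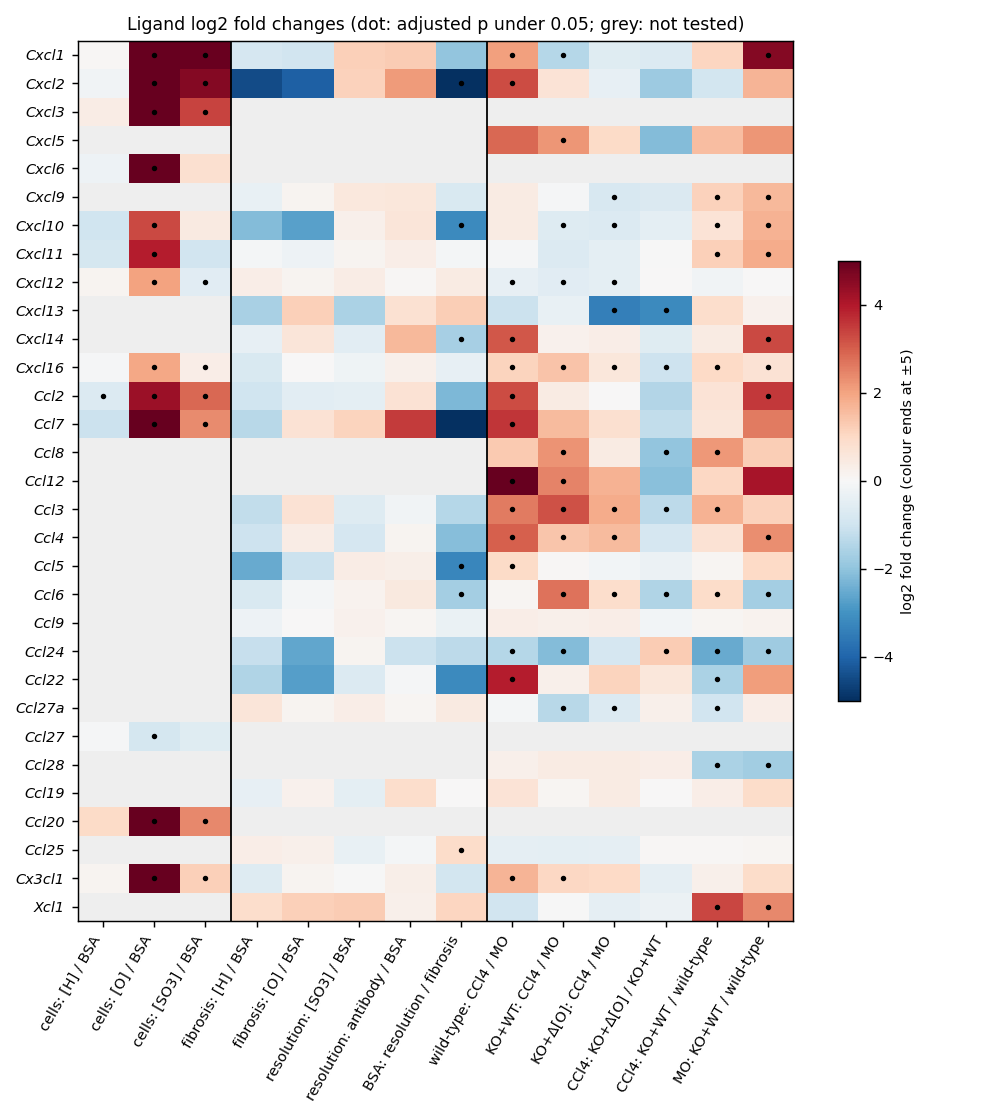
Log2 change of each ligand (rows) in 14 comparisons (columns), on a colour scale that ends at ±5; grey marks a ligand that was not tested and a dot marks an adjusted p under 0.05. Dots mark 13 ligands in the cell column of [O] HMGB1 against BSA and 14 in the column of CCl4 in wild-type livers, and no dot stands in the treatment columns of fibrotic or resolving liver; the colour of Ccl12 in wild-type livers comes from a fitted value against 0 counts.

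In fibrotic liver, neither [H] nor [O] HMGB1 changed a ligand against BSA by the test: 0 of 23 ligands were called by edgeR for either form, and 0% of all 13487 genes were. At an unadjusted p under 0.05 there were 4 ligands for [H] and 4 for [O] HMGB1, and DESeq2 called 0 for [H] and 1, Ccl24, for [O], among 3 and 5 of all genes. BSA library 2 stood apart from the other BSA libraries over many ligands. Cxcl2, the neutrophil attractant, had 3.39, 337 and 12.6 CPM over the 3 BSA libraries, 1.37, 12.3 and 1.97 with [H] and 1.07, 18.6 and 0.713 with [O] HMGB1. Cxcl1 had 17.2, 141 and 23.4 CPM with BSA, 13.1, 43.8 and 45.3 with [H] and 12.2, 53.9 and 26.1 with [O]. Library 2 was thus the highest BSA library for both, and the groups overlapped. Library 2 was the highest of all 3 groups for Cxcl2, and same-numbered libraries of these groups deviated together. Within each number Cxcl2 was lower with [H] and with [O] HMGB1 than with BSA, in 3 of 3 pairs for either form against the same BSA libraries, and with the replicate number as a block it was not called either (log2 −3.46, adjusted p = 0.363 for [H] and log2 −3.59, adjusted p = 0.84 for [O]). This block ran over the resolving livers as well, and BSA libraries of the same number correlated only at −0.0397 to 0.0405 between the phases. It is therefore not a paired test of the fibrotic groups alone.

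The same library led for ligands of other receptors. Cxcl10 had 7.84, 116 and 7.26 CPM in the BSA libraries, Ccl5, a T cell attractant, 8.57, 86.0 and 6.53, and Ccl2 5.92, 40.3 and 6.24. With BSA as the control, log2 values of [H] HMGB1 were −4.47 for Cxcl2, −2.52 for Ccl5, −2.18 for Cxcl10 and −0.82 for Cxcl1, and with Ccl2 the 5 had adjusted p from 0.414 to 0.709. Without BSA library 2 the values of Ccl2, Cxcl1 and Cxcl10 turned positive (0.49, 0.73 and 0.33). For [O] HMGB1 the same happened to Ccl2 (log2 −0.54, then 0.97), Ccl5 (log2 −1.06, then 1.10) and Cxcl1 (log2 −0.97, then 0.60). In this library the cholangiocyte markers summed to 539 CPM, against 57.6 and 42.2 in the other 2, and the 6 neutrophil markers to 184 against 53.6 and 82.1 CPM. The part of these cells in the ligand values was not tested.

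Among the other ligands, Cxcl12 ranged over 215 to 385 CPM with BSA, 229.6 to 544 with [H] and 257 to 459 with [O] HMGB1, Cx3cl1 over 3.63 to 7.25, 2.16 to 4.95 and 4.27 to 7.12, and Ccl7 over 0.363 to 8.96, 0.255 to 2.37 and 0.427 to 15.4, so that all groups overlapped. Ccl20, which rose in the cells with [O] HMGB1, had 0 to 0.201 CPM in the fibrotic BSA livers and 0, 0 and 0 with [O] HMGB1, too low to test. Some groups did not overlap without passing the edgeR test: 1 of 23 ligands for [H] against BSA, 1 for [O] against BSA and 3 between the 2 forms. Overlap was not counted over all genes, so these counts are not read as a result about the ligands. Ccl24 had 4.92, 30.4 and 9.29 CPM with BSA and 3.70, 1.91 and 1.75 with [O] HMGB1 (log2 −2.59, SE 0.63, adjusted p = 0.889; DESeq2 adjusted p = 0.0353). Between the 2 forms, Cxcl13 had 7.12, 5.28 and 1.78 CPM with [H] and 23.0, 55.0 and 23.1 with [O], and Cxcl16 had 20.5, 22.3 and 20.4 and 30.4, 44.6 and 36.0. Cxcl14, a tissue chemokine, also separated the forms. Cell type markers separated them too: monocyte and macrophage markers summed to 233 to 403 CPM with [H] and 612 to 1008 with [O], Kupffer cell markers to 533 to 780.3 and 1093 to 1196, stellate cell markers to 140.5 to 313 and 633 to 789 and sinusoidal endothelial markers to 82.1 to 201 and 217 to 269. Their part in these ligand values was not tested. Between the forms 0 of 23 ligands were called by edgeR and 0 by DESeq2, with 0% of all genes called by edgeR, 278 of 13487 genes called by DESeq2 and 5 ligands at an unadjusted p under 0.05 by edgeR.

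**Figure D4:**
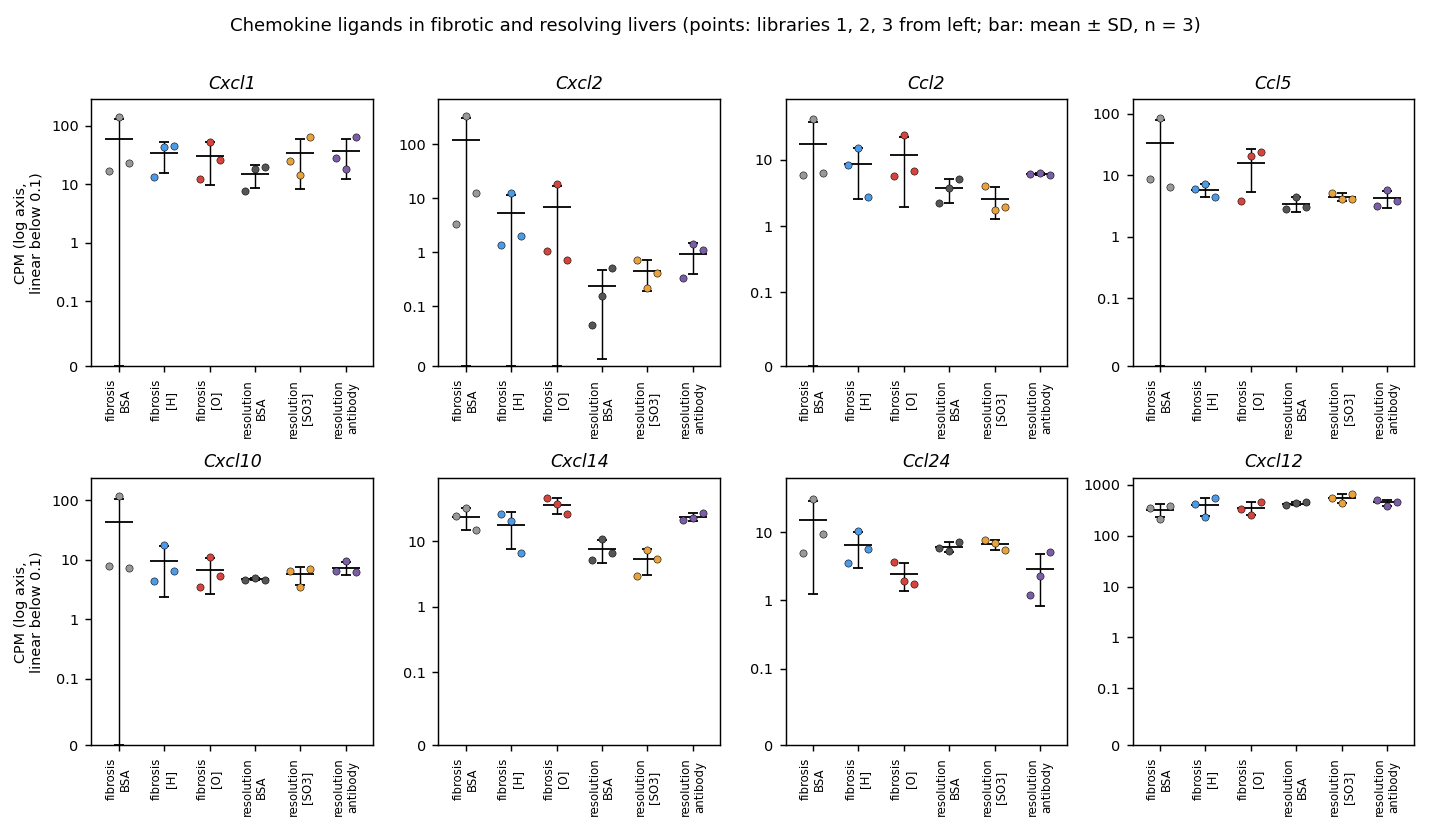
Levels of 8 ligands in fibrotic and resolving livers, in CPM on a log axis that is linear below 0.1, by group. Points are libraries 1, 2 and 3 from left to right and the mark with its bar is the mean with SD, clipped at 0; library 2 of the fibrotic BSA livers is the highest of its group in Cxcl2 (337), Cxcl1 (141) and Cxcl10 (116).

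In resolving liver, [SO3] HMGB1 and the HMGB1 antibody each gave 0 called ligands of 23 against BSA by edgeR, again with 0% of all genes called. At an unadjusted p under 0.05 there were 0 ligands for [SO3] HMGB1 and 1 for the antibody, and DESeq2 called no ligand for either, among 80 genes for [SO3] HMGB1 and 7 for the antibody. Cxcl1 had 7.80, 18.6 and 19.4 CPM with BSA, 25.0, 14.4 and 63.7 with [SO3] HMGB1 and 27.6, 18.4 and 64.0 with the antibody, and the groups overlapped. Cxcl14 had 5.07, 10.7 and 6.65 CPM with BSA and 20.9, 22.5 and 26.7 with the antibody, which did not overlap (log2 1.64, SE 0.46, adjusted p = 1). Ccl2 ranged over 2.19 to 5.14 CPM with BSA, 1.72 to 4.03 with [SO3] HMGB1 and 5.86 to 6.23 with the antibody, Cxcl2 over 0.0685 to 0.502, 0.215 to 0.732 and 0.339 to 1.40, and Cxcl12 over 389.7 to 449.9, 431 to 664 and 383 to 502. Cxcl10 ranged over 4.64 to 4.97, 3.55 to 7.03 and 6.16 to 9.35 CPM and Ccl5 over 2.88 to 4.50, 4.09 to 5.22 and 3.22 to 5.69. Of the 23 ligands, 4 stood higher and 1 lower with the antibody without overlap, and 2 higher with [SO3] HMGB1. Overlap was not counted over all genes, so these counts are not read as a result about the ligands. For Ccl2 and Cxcl10 the antibody libraries lay above the BSA libraries, and neither was called (adjusted p = 1 and 1).

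Between the BSA livers of the 2 phases, 5 of 23 ligands were lower in resolving liver and 1 was higher, where 6.6% of all genes were lower and 2.4% higher. The median was −1.30 over the ligands, and of the 16 that reached 10 counts in every library, 4 were lower and 1 higher. Cxcl2, the other lower ligand, reached 10 counts in no resolving BSA library, so that its entry to the test favoured the call. Cxcl2 had 0.0685, 0.155 and 0.502 CPM in resolving liver, all below the lowest fibrotic value of 3.39 (log2 −9.10, SE 2.02, adjusted p = 0.0216). Ccl5 was at 2.88, 4.50 and 3.01 CPM (log2 −3.27, SE 0.83, adjusted p = 0.0314) and Cxcl10 at 4.65, 4.97 and 4.64 (log2 −3.19, SE 0.89, adjusted p = 0.0398), and the other 2 lower ligands were Cxcl14 (log2 −1.65) and Ccl6 (log2 −1.70). Ccl25, the ligand of CCR9, was higher (log2 0.90, SE 0.26, adjusted p = 0.0415), but its gene overlaps Elavl1 on the other strand. Ccl2 had 2.19, 3.80 and 5.14 CPM and was not called (log2 −2.24, SE 0.78, adjusted p = 0.075), nor were Ccl7 (2 counts against 110, a ratio of 0.0199 with a 95% counting interval of 0.00238 to 0.0735, adjusted p = 0.0542) and Cxcl1 (log2 −1.99, adjusted p = 0.121).

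These calls depended on single libraries: 0 ligands were called without fibrotic BSA library 2, and 0 without any 1 of the 3 resolving BSA libraries, while 11 were called without fibrotic BSA library 1. Of the receptors, Ccr1, Ccr2 and Cx3cr1 of monocytes and the atypical Ackr3 were lower in resolving liver. Beside them, 5 of 8 monocyte and macrophage markers and 3 of 4 cholangiocyte markers were lower. The monocyte and macrophage markers summed to 389 to 796 CPM in fibrotic and 193 to 259 in resolving BSA livers, and the stellate cell markers to 365 to 695 and 167 to 237. Their part in the ligand values was not tested.

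In wild-type livers, CCl4 for 4 weeks raised 12 of 27 ligands against MO and lowered 2, where 22.8% of all 14129 genes were higher and 23.5% lower (46.3% either way). The median was 0.95 over the ligands, and of the 12 that reached 10 counts in every library, 4 rose and 1 fell. Ccl2, Ccl3, Ccl4, Ccl7, Ccl12, Ccl22 and Cxcl2 reached 10 counts in CCl4 libraries and in no MO library of the wild type. Their entry to the test thus favoured a rise. Of the 4 CCR2 ligands 3 rose. Ccl2 had 0.247, 0.273 and 0.416 CPM with MO and 3.15, 5.73, 2.46 and 0.635 with CCl4, without overlap (log2 3.26, SE 0.62, adjusted p = 0.000306). Ccl7 rose by log2 3.58, and Ccl12, a mouse ligand of CCR2, went from 0 counts in all MO libraries to 26 counts over the CCl4 libraries, at least 4.15-fold higher against a floor of 3 counts over the group. Ccl3 and Ccl4, the macrophage inflammatory proteins, rose from low levels, Ccl3 from 0.165, 0.0546 and 0.0462 CPM with MO to 0.705, 0.554, 0.377 and 0.709 with CCl4 (log2 2.61, SE 0.59, adjusted p = 0.00125) and Ccl4 by log2 2.99.

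Among CXC ligands, Cxcl1 had 2.43, 2.68 and 3.14 CPM with MO and 11.9, 15.6, 10.5 and 8.03 with CCl4 (log2 2.07, SE 0.52, adjusted p = 0.00365), and Cxcl2 rose by log2 3.28. Cxcl16 had 5.27, 5.96 and 6.84 CPM with MO and 15.3, 15.2, 12.7 and 8.81 with CCl4 (log2 1.11, SE 0.21, adjusted p = 0.000234), and Cxcl14 rose by log2 3.11. Cx3cl1 rose too (log2 1.69), as did Ccl22, a macrophage and dendritic cell ligand of CCR4 that went from 2 counts to 71 (a ratio of 17.0, counting interval 4.53 to 143). Ccl5 was called as well (log2 0.95, SE 0.35, adjusted p = 0.0329). The CXCR3 ligands were not called: Cxcl10 had 2.59, 2.29 and 2.08 CPM with MO and 2.66, 4.49, 2.58 and 2.61 with CCl4 (log2 0.41, SE 0.25, adjusted p = 0.181).

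The 2 ligands that fell were Ccl24, from 3.78, 4.86 and 6.19 to 1.71, 2.38, 1.16 and 2.13 CPM (log2 −1.42, SE 0.28, adjusted p = 0.000436), and Cxcl12, from 371, 355 and 354 to 294, 251, 268 and 285 CPM (log2 −0.39, SE 0.12, adjusted p = 0.0124). The TMM scaling factors were 0.754 to 0.810 in these MO libraries and 0.984 to 1.18 in the CCl4 libraries. The direction of a change as small as that of Cxcl12 thus rests on this scaling. The call of Ccl12 was lost without MO library 1 or 3 or CCl4 library 2, and that of Ccl5 without MO library 1 or 2 or CCl4 library 2. Ccl9 was not called, at 95.6 to 109 CPM with MO and 99.2 to 149 with CCl4. Of 12 receptors tested, 6 rose and none fell, among them Ccr2 (log2 3.04), Ccr1 (log2 3.04), Cx3cr1 (log2 3.45) and Cxcr2, and Pf4 rose as well (log2 2.40). Beside these, 6 of 8 monocyte and macrophage markers and 4 of 5 tested neutrophil markers rose. The neutrophil markers summed to 10.6 to 14.3 CPM with MO and 17.6 to 33.5 with CCl4, and 3 of 5 Kupffer cell markers fell. Monocyte and macrophage markers summed to 98.1 to 116 and 221 to 353 CPM and stellate cell markers to 49.2 to 69.7 and 211 to 391. The part of these cells in the ligand values was not tested.

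In knockout livers with WT HMGB1, CCl4 raised 8 of 27 ligands and lowered 5, where 23.3% of all genes were higher and 24% lower (47.3% either way). The median was 0.24 over the ligands, and of the 12 with 10 counts in every library 2 rose and 4 fell. Ccl6 had 8.87, 6.98 and 9.99 CPM with MO and 49.1, 68.4, 52.6 and 57.6 with CCl4 (log2 2.72, SE 0.32, adjusted p = 4.27e-06). Cxcl16 had 10.2, 8.15 and 11.1 and 23.7, 24.8, 25.8 and 30.7 CPM (log2 1.42, SE 0.20, adjusted p = 2.21e-05), and Ccl3 had 0.386, 0.0418 and 0.205 and 1.61, 1.82, 2.32 and 2.03 (log2 3.17, SE 0.45, adjusted p = 2.22e-05). In all 3 the CCl4 libraries lay above the MO libraries. Ccl8 (log2 2.26), Ccl4 (log2 1.40), Ccl12 (log2 2.47), Cxcl5 (log2 2.20) and Cx3cl1 (log2 1.04) made up the rest of the higher ligands. Ccl8 reached 10 counts only in libraries of this CCl4 group, so that its entry to the test favoured the call, and it was tested in 4 of the 7 fits that left out 1 library. Ccl12 and Cxcl5 reached 10 counts only in CCl4 libraries of this group and of the wild type, which favoured their calls too. The call of Ccl12 was lost without MO library 2 or 3, and those of Cxcl5 and Cx3cl1 were each kept in 3 of 7 fits that left out 1 library.

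Cxcl1 was lower with CCl4 in these livers, with 72.9, 40.4 and 84.7 CPM with MO and 24.6, 14.8, 30.4 and 27.3 with CCl4 (log2 −1.44, SE 0.44, adjusted p = 0.0128). Cxcl10 fell too (log2 −0.65, SE 0.22, adjusted p = 0.0232), a call kept in 3 of 7 such fits, as did Ccl24 (log2 −2.17), Ccl27a (log2 −1.41) and Cxcl12 (log2 −0.57). Ccl27a overlaps Il11ra1 and Cxcl10 overlaps Art3 on the opposite strand, and with the strand setting of the counting not given their values are uncertain. Ccl2 was not called, with 2.97, 3.39 and 4.54 CPM with MO and 4.10, 5.37, 5.58 and 4.12 with CCl4 (log2 0.40, SE 0.46, adjusted p = 0.5), nor were Cxcl2 (log2 0.67) and Ccl7 (log2 1.58, adjusted p = 0.0672). Beside Cxcl1, 4 of 5 neutrophil markers fell, their sum being 53.8 to 77.5 CPM with MO and 24.9 to 29.0 with CCl4, and Ppbp fell (log2 −1.06). Beside Ccl6, Kupffer cell markers summed to 299 to 447 CPM with MO and 953 to 1004 with CCl4. Monocyte and macrophage markers summed to 79.0 to 112 and 399 to 571 CPM and stellate cell markers to 58.6 to 98.3 and 559.6 to 849.9, with 7 of 8 and 6 of 6 higher. Their part in either result was not tested.

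In knockout livers with Δ[O] HMGB1, CCl4 raised 4 of 27 ligands and lowered 5, where 12.9% of all genes were higher and 11.4% lower. Those higher were Ccl3 (0.155 to 0.281 CPM with MO, 0.394 to 1.14 with CCl4, log2 1.86, SE 0.47, adjusted p = 0.00681), Ccl4 (log2 1.58), Ccl6 (log2 0.88) and Cxcl16 (log2 0.58). Cxcl13 fell most, from 6.20, 3.62 and 8.38 CPM with MO to 0.121, 1.41, 0.449 and 0.158 with CCl4 (log2 −3.41, SE 0.77, adjusted p = 0.0038), with no overlap. Cxcl9 (log2 −0.79), Cxcl10 (log2 −0.70), Ccl27a (log2 −0.67) and Cxcl12 (log2 −0.49) also fell. Of these 9 calls Ccl3, Cxcl13 and Cxcl12 were kept in all 7 fits that left out 1 library, Ccl4 in 6, Cxcl16, Ccl6 and Ccl27a in 3, and Cxcl9 and Cxcl10 in 2, and a fit of only the groups compared called 3 ligands. Cxcl1 was not called (log2 −0.62, SE 0.45, adjusted p = 0.333): MO library 3 had 47.2 CPM against 13.4 and 8.80 in the other 2, and without it the log2 value was 0.44. Between 4 ligands (without CCl4 library 2) and 8 were called when 1 library was left out, with 5 without MO library 1 and 6 without MO library 2 or CCl4 library 3. Monocyte and macrophage markers summed to 66.9 to 145 CPM with MO and 191 to 482 with CCl4 and stellate cell markers to 76.6 to 95.5 and 228 to 508, with 5 of 8 and 5 of 6 higher, and their part in the ligand values was not tested. The 3 CCl4 responses share no libraries.

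**Figure D5:**
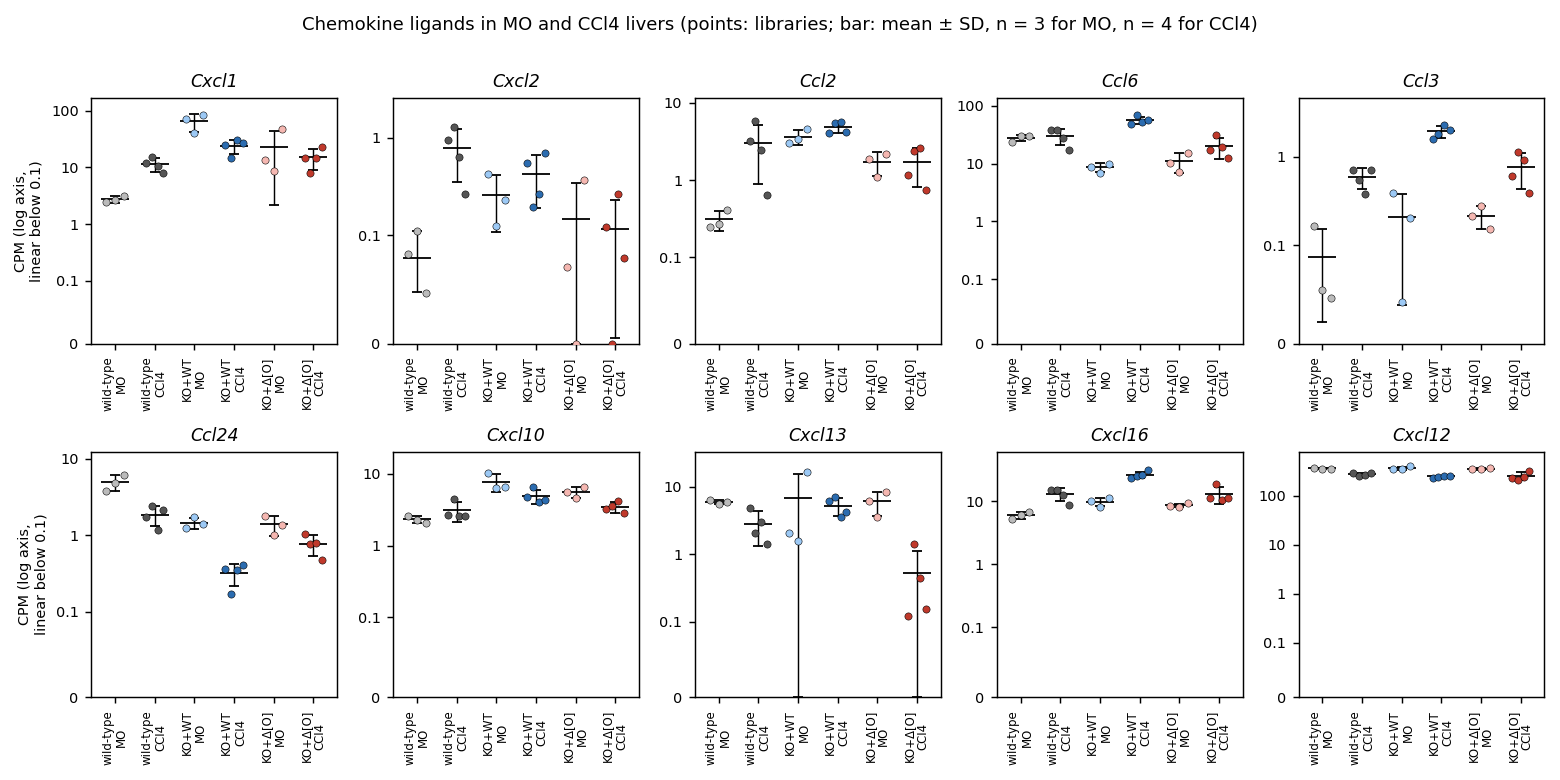
Levels of 10 ligands in wild-type livers (WT), knockout livers with WT HMGB1 (KO+WT) and knockout livers with Δ[O] HMGB1 (KO+Δ[O]) given MO or CCl4, in CPM on a log axis that is linear below 0.1. Points are the 3 or 4 libraries of a group in the order of their numbers and the mark with its bar is the mean with SD, clipped at 0; Cxcl1 is highest in KO+WT livers given MO (40.4 to 84.7) and lowest in WT livers given MO (2.43 to 3.14).

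Among knockout livers given CCl4, those with Δ[O] HMGB1 had lower levels of 5 of 27 ligands than those with WT HMGB1 and a higher level of 1, where 2.19% of all genes were lower and 0.113% higher. The median was −0.62 over the ligands. Cxcl16 had 11.4, 18.5, 10.4 and 11.2 CPM with Δ[O] and 23.7, 24.8, 25.8 and 30.7 with WT HMGB1, and every Δ[O] library lay below every WT HMGB1 library (log2 −1.03, SE 0.18, adjusted p = 0.00638). Ccl6 had 17.3, 31.5, 19.4 and 12.5 CPM with Δ[O] against 49.1 to 68.4 (log2 −1.49, SE 0.27, adjusted p = 0.00762), also with no overlap. Cxcl13 (log2 −3.20, SE 0.74, adjusted p = 0.0286), Ccl8 (log2 −1.98, adjusted p = 0.0439) and Ccl3 (log2 −1.31, adjusted p = 0.0486) were the other 3 lower ligands. Ccl8 reached 10 counts only in libraries of the WT HMGB1 group, so that its entry favoured a lower Δ[O] value, and its call was kept in 2 of the 5 fits in which it was tested with 1 library left out. Of the 12 ligands with 10 counts in every library, 2 were lower and 0 higher. Ccl24 was higher, with 1.03, 0.769, 0.793 and 0.473 CPM against 0.365, 0.170, 0.352 and 0.406 (log2 1.27, SE 0.33, adjusted p = 0.0435).

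Ccl2 was lower in each Δ[O] library than in any WT HMGB1 library, at 1.15, 2.36, 2.59 and 0.749 CPM against 4.10, 5.37, 5.58 and 4.12, but was not called (log2 −1.46, SE 0.43, adjusted p = 0.0892). Cxcl1 overlapped (log2 −0.69, adjusted p = 0.467). Same-numbered libraries of these 2 groups deviated together only weakly (correlations 0.108 to 0.261 over 3 shared numbers, 2 of them closest to their own number). An edgeR fit with the replicate number as a block called Ccl2 (log2 −1.93, adjusted p = 0.0288) and Cxcl9 (log2 −0.70, adjusted p = 0.0391). It no longer called Ccl8 (adjusted p = 0.0544), Ccl24 (0.0668) and Ccl3 (0.077). This block ran over all groups of the table, some with negative correlations, such as −0.252 to −0.0836 between CCl4 and MO livers with Δ[O] HMGB1. Its calls thus rest on a pairing that the labels do not give. With 1 library left out, 2 ligands were called without WT HMGB1 library 1, 3 or 5 or Δ[O] library 1 or 3, 3 without WT HMGB1 library 4, 4 without Δ[O] library 5 and 5 without Δ[O] library 2, and Cxcl16 and Ccl6 were called in all 8 fits. Beside these, 3 of 5 Kupffer cell markers (Marco, Timd4 and Cd5l), Cd68, Itgam and the neutrophil marker Csf3r were lower, and the Kupffer cell markers summed to 294 to 659 CPM with Δ[O] and 953 to 1004 with WT HMGB1, and the stellate cell markers to 228 to 508 and 559.6 to 849.9. Their part in the ligand values was not tested.

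The difference between the CCl4 responses of the 2 knockout groups, tested as an interaction, was called for 0 of 27 ligands by edgeR and for 0% of all genes, with 5 ligands at an unadjusted p under 0.05. DESeq2 called 1 ligand, Ccl6 (log2 −1.82, adjusted p = 0.0139), for which edgeR gave log2 −1.84, SE 0.42, adjusted p = 0.173. Without MO library 3 of the knockout livers with WT HMGB1, edgeR called 2, and without CCl4 library 2 of those with Δ[O] HMGB1 it called 1. With MO, Δ[O] and WT HMGB1 livers differed by edgeR in 0 of 27 ligands and 0% of genes, with 3 ligands at an unadjusted p under 0.05 and 0 called by DESeq2, and 1 was called by edgeR without Δ[O] library 3. Cxcl1 had 13.4, 8.80 and 47.2 CPM with Δ[O] and 72.9, 40.4 and 84.7 with WT HMGB1 there (log2 −1.51, SE 0.49, adjusted p = 0.35), and Ccl2 had log2 −1.08 (adjusted p = 0.45).

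The knockout livers with WT HMGB1 differed from wild-type livers already with MO: 9 of 27 ligands were higher and 3 lower, where 12.7% of all genes were higher and 11.5% lower. The median over the ligands was 1.23, or 1.17 with ligands without a count in 1 group at their bound, and of the 12 with 10 counts in every library 5 were higher and 1 lower. Cxcl1 had 72.9, 40.4 and 84.7 CPM in the knockout and 2.43, 2.68 and 3.14 in wild-type livers (log2 4.59, SE 0.58, adjusted p = 2.67e-05), the highest fold change of the 27. Ccl2 had 2.97, 3.39 and 4.54 CPM against 0.247, 0.273 and 0.416 (log2 3.53, SE 0.64, adjusted p = 0.00051). All 3 CXCR3 ligands were higher in RNA, Cxcl10 with 10.2, 6.36 and 6.64 CPM against 2.59, 2.29 and 2.08 (log2 1.73, SE 0.26, adjusted p = 7.82e-05), Cxcl9 by log2 1.60 and Cxcl11 by log2 1.85. Mouse Cxcl11 is annotated on GRCm38 as a polymorphic pseudogene, so its RNA need not stand for a working ligand. Cxcl14 (log2 3.29), Ccl4 (log2 2.31), Xcl1, a ligand of cytotoxic lymphocytes (log2 2.39), and Cxcl16 (log2 0.71) were higher as well. Ccl2, Ccl4 and Xcl1 reached 10 counts in no wild-type library given MO, so that their entry to the test favoured a higher knockout value. Cxcl11, Cxcl16 and Xcl1 also overlap a gene on the opposite strand, and the calls of Cxcl16 and Xcl1 were kept in 2 of 6 fits that left out 1 library.

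Ccl6 was lower in these knockout livers, with 8.87, 6.98 and 9.99 CPM against 23.8, 30.5 and 30.0 (log2 −1.70, SE 0.32, adjusted p = 0.000779), as were Ccl24 (log2 −1.77) and Ccl28, a mucosal ligand of CCR10 (log2 −1.75), whose call was lost whichever library was left out. Ccl28 reached 10 counts in no knockout library of this comparison, so that its entry to the test favoured a lower knockout value. Beside Cxcl1, the receptor Cxcr2 was higher and 4 of 5 neutrophil markers were, S100a8 with 20.7, 18.3 and 25.3 CPM against 3.25, 2.51 and 3.23. The receptors Cx3cr1 and Ccr2 of monocytes, Cxcr3 of T cells and Cxcr6, the receptor of CXCL16, were higher. Marco and Timd4 of the Kupffer cell markers were lower, beside Ccl6. What part these cells had in the ligand levels was not tested.

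With CCl4, 8 of 27 ligands were higher and 4 lower in the knockout livers with WT HMGB1 than in wild-type livers, where 15.8% of all genes were higher and 13% lower (28.8% either way). Of the 12 ligands with 10 counts in every library, 4 were higher and 1 lower. Ccl8 and Xcl1, counted among the 8, reached 10 counts only in the knockout libraries of this comparison. Ccl22, counted among the 4, reached 10 counts only in its wild-type libraries. Entry to the test thus favoured the calls of Ccl8, Xcl1 and Ccl22. The median was 0.67. Ccl24 was lower in each knockout library, with 0.365, 0.170, 0.352 and 0.406 CPM against 1.71, 2.38, 1.16 and 2.13 (log2 −2.52, SE 0.31, adjusted p = 1.11e-05). Cxcl16 was higher in each knockout library, with 23.7, 24.8, 25.8 and 30.7 CPM against 15.3, 15.2, 12.7 and 8.81 (log2 1.01, SE 0.18, adjusted p = 0.000377). Higher too were Xcl1 (log2 3.33), Ccl8 (log2 2.19), Ccl3 (log2 1.73), Cxcl11 (log2 1.21), Cxcl9 (log2 1.15), Ccl6 (log2 0.90) and Cxcl10 (log2 0.67). Lower too were Ccl28 (log2 −1.60), Ccl22 (log2 −1.58) and Ccl27a (log2 −0.95). The call of Ccl6 was lost without wild-type library 4 or knockout library 3 and that of Cxcl11 without knockout library 1, and the calls of Cxcl10 and Ccl22 were kept in 4 and 3 of 8 such fits. Cxcl1 was not called here (log2 1.07, SE 0.42, adjusted p = 0.0654). Beside these, 4 of 5 Kupffer cell markers were higher, with sums of 953 to 1004 against 337 to 472 CPM. T and NK cell markers summed to 6.81 to 8.10 against 3.29 to 3.85 CPM, monocyte and macrophage markers to 399 to 571 against 221 to 353, stellate cell markers to 559.6 to 849.9 against 211 to 391, sinusoidal endothelial markers to 122 to 158 against 78.0 to 95.7 and cholangiocyte markers to 13.0 to 19.8 against 23.3 to 41.8, none of which overlapped. The part of these cells in the ligand values was not tested.

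The response to CCl4 itself differed between knockout livers with WT HMGB1 and wild-type livers for 6 of 27 ligands by the interaction test, 1 with a higher and 5 with a lower response in the knockout, where 6.85% of all genes were higher and 6.64% lower. Ccl6 responded more (log2 2.60, SE 0.42, adjusted p = 0.000658): it was not called in wild-type livers (23.8, 30.5 and 30.0 CPM with MO, 38.3, 37.6, 28.2 and 17.6 with CCl4) and rose in the knockout. Cxcl1 responded in opposite directions, rising in wild-type and falling in knockout livers (log2 −3.51, SE 0.69, adjusted p = 0.0031). Ccl2 (log2 −2.86, SE 0.77, adjusted p = 0.0185) and Cxcl14 (log2 −2.90, adjusted p = 0.0403) rose with CCl4 in wild-type livers and were not called in the knockout. Cxcl10 (log2 −1.06, adjusted p = 0.0403) and Ccl27a (log2 −1.30, adjusted p = 0.0115) fell with CCl4 in the knockout and were not called in wild-type livers. With 1 library left out, 3 ligands were called without wild-type MO library 1 or 2, which also ended the call of Ccl2, and the calls of Cxcl10 and Cxcl14 were kept in 6 and 3 of 14 such fits. Of the markers, 4 of 5 for neutrophils had a lower and 5 of 5 for Kupffer cells a higher response in the knockout.

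Ccl7, Cxcl2 and Cx3cl1, which rose in the cells with [O] HMGB1, and Ccl5 were at low levels in these livers. Ccl7 had 0.376 to 0.641 CPM with MO and 0.942 to 1.82 with CCl4 in knockout livers with WT HMGB1, and 0.0402 to 0.556 and 0.273 to 0.978 in those with Δ[O] HMGB1. Cxcl2 had 0.125 to 0.424 and 0.194 to 0.687 CPM with WT HMGB1 and 0 to 0.371 and 0 to 0.264 with Δ[O] HMGB1. Neither was called in any comparison that involved a knockout group. Cx3cl1 had 0.461 to 1.48 CPM with MO and 1.80 to 2.56 with CCl4 in knockout livers with Δ[O] HMGB1 and was not called there (adjusted p = 0.0742). Ccl5 had 1.80 to 3.43 and 1.80 to 2.91 CPM with WT HMGB1 and 1.85 to 2.94 and 1.08 to 2.65 with Δ[O] HMGB1, and was not called in any comparison with a knockout group. Ccl20 had 0 to 0.0542 CPM in wild-type livers given CCl4, the highest range among these groups, and was below the filter. Cxcl12 had 232 to 255 CPM with WT HMGB1 and 212 to 321 with Δ[O] HMGB1 under CCl4 (adjusted p = 0.925 between them), and Cxcl10 had 4.08 to 6.51 and 2.88 to 4.23 CPM (adjusted p = 0.253).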

How the data were processed

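Read counts per gene were analysed from 12 libraries of rat HSC-T6 cells and from 39 of mouse liver, in 3 tables deposited by the authors as whole-number counts. Per the labels, RNA came from an RNAspin Mini kit (liver) or a miRNeasy micro kit (cells), and TruSeq Stranded mRNA chemistry was used for the libraries. The submitters' processing notes name mm10 for all libraries, the rat cells included; aligner, counter, annotation and strand setting were not given in the sources used here. Ligands with a gene on the opposite strand and the near-identical copies Ccl21a to Ccl21c and Ccl27a and Ccl27b are therefore uncertain. Rows that name no gene were left out of totals: reads outside genes equalled 32.0% to 35.2% of gene counts in the cells and 5.50% to 8.51% in MO and CCl4 livers, and ambiguous reads 0.282% to 0.325% and 0.579% to 1.66%. Of the columns of counts, 0 were left without a sample.

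Each table was fitted on its own in edgeR 4.0.16 (R 4.3.3) with filterByExpr (minimum count 10, minimum total 15), TMM scaling and 1 robust quasi-likelihood model over all groups, which tested 10140, 13487 and 14129 genes. All p-values were adjusted over these genes by Benjamini-Hochberg, and edgeR gives every adjusted p unless DESeq2 is named. CPM are counts over the TMM-scaled library size. Where a group had 0 counts, a lower bound was set against 3 counts over the group; ratios with 1 to 3 counts carry an exact 95% interval, and both cover counting error only. Levels per kilobase use the exon length of each gene in GENCODE on GRCm38. The steps were tested on simulated data. Alternatives were DESeq2 1.42.0, its size factors (RLE) in edgeR, no filter on low counts, only the groups compared, the replicate number as a block, and leaving out each library. Comparisons of knockout with wild-type livers given MO, of the 2 knockout groups given MO and the difference of CCl4 responses between knockout and wild-type livers were added after seeing the data.

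The members and gene lists (receptors, atypical receptors and cell type markers) were chosen with earlier results of these data known. For 1 gene of these lists no named result is reported here. In each comparison the text names every called member, up to 10 by absolute log2 change, and Cxcl1, Cxcl2, Cxcl10, Cxcl12, Ccl2, Ccl5, Ccl7, Ccl20 and Cx3cl1 were followed whether or not they were called, with uncalled values given by group where a comparison repeats the same libraries; other members were named after their values were seen. Same-numbered libraries deviated together, every pair's correlation being over 0.1, between fibrotic livers with [H] HMGB1 and BSA (0.187 to 0.521), [O] HMGB1 and BSA (0.474 to 0.595) and the 2 forms (0.274 to 0.708), between the 2 knockout groups given CCl4 (0.108 to 0.261) or MO (0.289 to 0.454), and between knockout livers with WT HMGB1 and wild-type livers given CCl4 (0.116 to 0.313); the pairing comes from these correlations and not from the labels.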

Additional observations from a re-analysis of the deposited data

Results flagged for a closer look

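Single libraries stood apart in 8 of the 81 ligand levels looked at in groups of 4 libraries, by Dixon's gap over range above 0.829. For independent normal values chance gives about 1 in 20. These levels were untransformed CPM of ligands measured in the same livers, so their number is not read as an excess over chance. Among knockout livers with WT HMGB1 given CCl4, Xcl1 was 0.499 CPM in library 4 against 0.267 to 0.304 in the others, Ccl9 was 151 in library 3 against 133 to 134, Cxcl11 was 2.98 in library 1 against 1.59 to 1.80, and Ccl4 was lowest in library 1, at 0.790 against 1.15 to 1.19. Among knockout livers with Δ[O] HMGB1 given CCl4, library 2 had the highest Cxcl16, 18.5 CPM against 10.4 to 11.4, and the lowest Ccl27a, 1.71 against 2.93 to 3.15. Among wild-type livers given CCl4, Cxcl5 was 0.786 CPM in library 1 against 0 to 0.111 and Cxcl10 was 4.49 in library 2 against 2.58 to 2.66.

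The response to CCl4 differed between knockout livers with WT HMGB1 and wild-type livers by the interaction test for 6 ligands. The differences of log2 fold changes were 2.60 for Ccl6, −3.51 for Cxcl1, −1.30 for Ccl27a, −2.86 for Ccl2, −2.90 for Cxcl14 and −1.06 for Cxcl10, with edgeR adjusted p of 0.000658, 0.0031, 0.0115, 0.0185, 0.0403 and 0.0403 in this order.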

How the results depend on the processing

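Under size factors of DESeq2 in edgeR 156 of 159 results kept their direction and side of the threshold, without a filter on low counts 146 of 159, with a replicate block 146 of 159, under DESeq2 143 of 156 and with only the groups compared 126 of 149. The number of ligands called with [H] HMGB1 in the cells went from 1 to 2 without a filter, 3 under DESeq2 and 3 with only the groups compared. DESeq2 called 1 ligand with [O] HMGB1 in fibrotic liver and 1 in the difference of CCl4 responses between the knockout groups, where edgeR called 0 in each. Between resolving and fibrotic BSA livers 6 became 3 without a filter and 0 with only the groups compared. With only the groups compared, 3 ligands were called for CCl4 in knockout livers with Δ[O] HMGB1 (9 in the fit over all groups) and 3 for Δ[O] against WT HMGB1 with CCl4 (6), which also gave 3 without a filter. The cause of these changes was not tested.

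Leaving out 1 library gave 1 to 2 ligands called for [H], 12 to 13 for [O] and 8 to 9 for [SO3] HMGB1 against BSA in the cells, 12 to 13 for [O] against [H] and 12 to 12 for [SO3] against [O]. It gave 0 to 0 for each treatment in fibrotic and resolving livers and 0 to 11 between their BSA groups. In the other livers it gave 12 to 16 for CCl4 in wild type, 10 to 12 and 4 to 8 in knockouts with WT and Δ[O] HMGB1, 2 to 5 for Δ[O] against WT HMGB1 with CCl4 and 0 to 1 with MO. It gave 9 to 13 and 9 to 11 for knockout with WT HMGB1 against wild type with CCl4 and MO, and 0 to 2 and 3 to 7 for the 2 differences of responses. Directions turned under it for Cxcl10 with [SO3] HMGB1 in the cells (−0.31 to 1.29), for Ccl2 (−1.66 to 0.49), Cxcl1 (−1.27 to 0.73) and Cxcl10 (−2.98 to 0.33) with [H] and Ccl2 (−1.49 to 0.97), Ccl5 (−1.55 to 1.10) and Cxcl1 (−1.65 to 0.60) with [O] HMGB1 in fibrotic liver, and for Cxcl1 with CCl4 in knockout livers with Δ[O] HMGB1 (−1.01 to 0.44).

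With the replicate number as a block, the ligands called went from 6 to 5 for Δ[O] against WT HMGB1 with CCl4. Where the libraries share only a number, the block moved the count from 6 to 7 between resolving and fibrotic livers, from 14 to 13 for CCl4 in wild-type livers, from 13 to 12 in knockout livers with WT HMGB1 and from 6 to 5 in the difference of their responses. All other counts of ligands called stayed as they were. The highest count of an untested ligand in any library was 7 in the cells and 7 in MO and CCl4 livers. Whether such ligands were absent or too rare for the depth was not tested. In fibrotic and resolving livers it was 37, in a ligand with too few libraries above the minimum count.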
